A study of Mus musculus with 24 samples.

Results

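Neurospheres from control embryos were compared between 24 h and 12 h of culture. The comparison holds 6 of the 24 libraries of the series, which are the cultures of Cep135 (+/+) embryos 3, 4 and 5 at each time, and they were paired by embryo number. The embryos, at embryonic day E14.5, came from crosses of heterozygous (+/-) mice, as did Cep135-null embryos 1, 2 and 6. Their dorsal telencephalon was dissociated with papain, and the cells were kept in suspension in medium with EGF and FGF2, so both times share the dissociation, the medium and the genotype and differ in the hours in culture. Each time has 3 embryos (n = 3), and no uncultured cell suspension is among the groups compared. The E14.5 cortices of embryos 3, 4 and 5 are given as a description, and the null cultures were tested separately. RNA was counted from the 3′ ends of transcripts, and values are normalized counts as deposited.

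Neurospheres are floating clusters that neural stem and progenitor cells form when they divide under EGF and FGF2. In the E14.5 cortex the dividing cells are radial glia, which line the ventricle, and intermediate progenitors, which arise from them and give rise to neurons. Cultures made from whole tissue start with these cells together with young neurons, blood cells and vessel cells. The bHLH factors Olig1 and Olig2 mark progenitors that can give oligodendrocytes.

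Reads on genes ranged from 4732781 to 9635546 a library. Gm42418, a transcript that overlaps a ribosomal RNA repeat on chromosome 17, took between 6.26 and 34.8% of them, and its share was lower at 24 h than at 12 h in each of the 3 embryos (18.9, 34.8 and 10.7% at 12 h; 9.44, 13.9 and 6.26% at 24 h). This share moves with the hours in culture, so share and time cannot be told apart within the controls. Cep135, the gene mutated in the nulls, had 291, 336 and 201 normalized counts at 12 h and 217, 276 and 185 at 24 h in embryos 3, 4 and 5 (log2 difference -0.27 ± 0.19 (SE), limma adjusted p = 0.784). The null allele is a short frameshift deletion near the 5′ end of the gene, which 3′ tags do not cover, so these counts do not check the genotype.

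Of 13294 genes tested, 37 passed (limma with embryo as a block, Benjamini-Hochberg adjusted p below 0.05). There were 15 genes higher at 24 h (0.113% of those tested) and 22 lower (0.165%). All 37 moved the same way in 3 of 3 embryos, which is no further support because they were picked on these differences. The smallest change among them was 1.71-fold. The 24 h and 12 h libraries did not overlap for 31 of the 37, against 12.1% of all genes tested. Differences were small for most genes, with a median log2 difference of 0.02 and quartiles of -0.19 and 0.23. The calls rest on the embryos used. There were 5 higher and 14 lower genes without embryo 4, and 32 and 53 without embryo 5. Without embryo 3, 184 higher and 82 lower genes passed of 13232 tested. With 1 embryo left out, p-values lean more on the variance that limma shares between genes. Among the genes named by the rule and reported here, Chst2, Pdzrn4, Nrgn, Rgs7bp, Hist1h1b and Pclaf did not pass without embryo 4, Hpx did not pass without embryo 5, and Mmp3 and Ier3 passed in neither. Without the embryo block 1 gene passed as higher, Olig1, and 1 as lower, Hbb-bt. With the Gm42418 share as a further term beside the embryo block, 0 genes passed as higher and 1 as lower, with 207 at an unadjusted p below 0.05 in that limma fit.

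**Figure D1:**
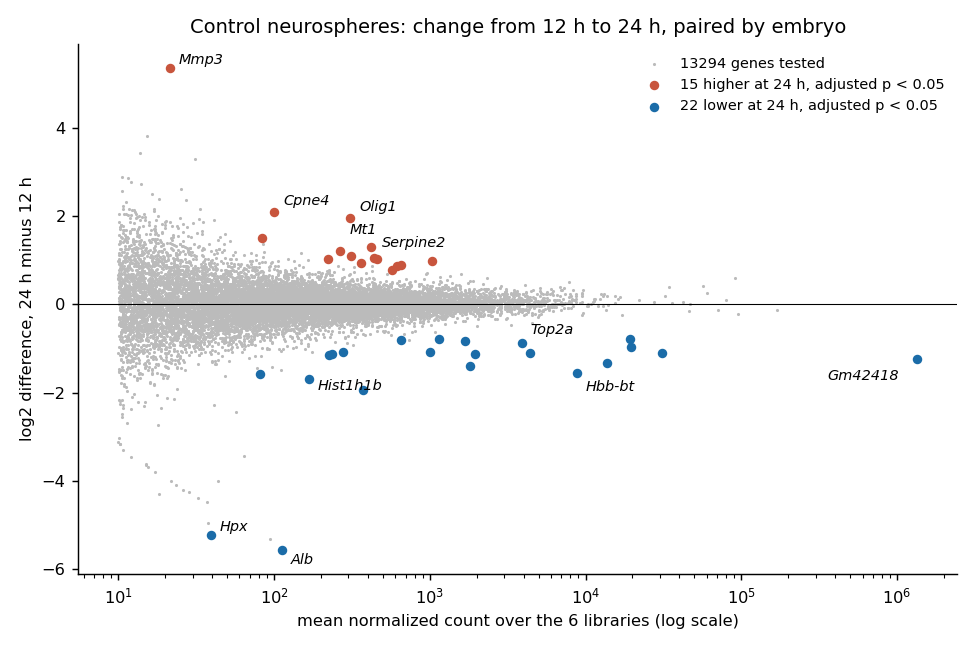
Log2 difference of normalized counts between 24 h and 12 h in control neurospheres (y axis) against the mean normalized count over the 6 libraries (x axis, log scale), with a point for each of 13294 genes. Red points are the 15 genes higher and blue points the 22 genes lower at 24 h with an adjusted p below 0.05, and the grey cloud centres on 0.02.

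Olig1 had the smallest p among the genes that rose. It was counted at 113, 129 and 137 in embryos 3, 4 and 5 at 12 h and at 452, 527 and 491 at 24 h. Every 24 h library lay above every 12 h library, and the rise was 3.85-fold (log2 difference 1.95 ± 0.19 (SE), limma adjusted p = 4.81e-05). In the uncultured cortices of these embryos it was at 30.6, 45.7 and 10.5, so each 12 h culture already lay above each cortex. The gene lies on chromosome 16, at 91269772 to 91271933 on the plus strand (GRCm38). Its neighbour Olig2 was at 327, 444 and 153 at 12 h and at 374, 819 and 451 at 24 h, and it did not pass in controls (log2 difference 0.88 ± 0.22, adjusted p = 0.172). Olig2 went the same way in each embryo, but its 12 h and 24 h values overlap because the embryos differ among themselves. Among the 11 tested genes of the glial list, Olig1 was the only call. Pdgfra, the receptor that defines oligodendrocyte precursors, stayed low, at 17.3, 3.52 and 3.04 and then at 12.3, 21.9 and 7.5.

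Several of the other genes that rose encode secreted proteins or enzymes. Serpine2, a secreted inhibitor of serine proteases, was at 225, 257 and 229 at 12 h and at 490, 728 and 573 at 24 h (2.48-fold, adjusted p = 0.0011). Chst2, a sulfotransferase that acts on carbohydrate chains, was at 791, 559 and 740 and then at 1546, 1326 and 1265 (1.99-fold, adjusted p = 0.00344). In both the groups are separate, and each 24 h library also exceeds the cortex of its embryo, where Serpine2 was at 152, 184 and 154 and Chst2 at 319, 299 and 318. Mmp3, a secreted metalloproteinase, had no read in any control culture at 12 h and 24, 39 and 24 reads at 24 h. Against a floor of 3 reads in each 12 h library it was at least 6.94-, 18.7- and 13.2-fold higher at 24 h in embryos 3, 4 and 5. It was listed at 0, 0.726 and 0 in the cortices. It passed the filter on low values through the 24 h libraries alone, so its call among the 15 higher genes is no further support.

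Further genes that rose encode signalling or neuronal proteins. Cpne4, a calcium-dependent membrane-binding protein, was at 37.8, 21.1 and 61.5 at 12 h and at 158, 162 and 163 at 24 h (4.29-fold, adjusted p = 0.00386). Its 24 h values lay within a narrow band, 161 ± 2.2 (SD, n = 3), while its 12 h values spread over 40.1 ± 20.3. Nrgn, a calmodulin-binding protein of neurons, was at 285, 132 and 197 and then at 437, 455 and 369 (2.14-fold, adjusted p = 0.0346), and Rgs7bp, a membrane anchor of RGS proteins, at 285, 205 and 386 and then at 649, 630 and 493 (2.07-fold, adjusted p = 0.0346). Rhoq, a small GTPase, rose 2.06-fold from 272, 324 and 293 to 519, 662 and 663 (adjusted p = 0.00579). Pdzrn4, which encodes a PDZ and RING domain protein, rose 1.93-fold from 271, 242 and 224 to 462, 519 and 445 (adjusted p = 0.0277). With the Gm42418 share beside the block in the control libraries, the log2 estimates of Cpne4 (-0.70), Nrgn (-0.70) and Rgs7bp (-1.27) took the opposite sign. Over all 12 neurosphere libraries with share and block they were 2.94, 0.17 and 0.90. With the share and no block in the control libraries they were 1.48, 0.94 and 0.77. The genes passed in none of these fits. For Nrgn the 12 h culture of each embryo was below its cortex, at 308, 345 and 275, and the 24 h culture above it. Nr4a2, Ankrd34a and Sst were also called higher, and they are named after their values were seen, outside the naming rule. Sst, the interneuron peptide somatostatin, was at 477, 350 and 438 and then at 710, 698 and 763 (1.73-fold, adjusted p = 0.0456), and Nr4a2, a nuclear receptor that is also an early response gene, at 398, 350 and 570 and then at 944, 708 and 734 (1.83-fold, adjusted p = 0.0443). Ankrd34a rose 2.85-fold (adjusted p = 0.0456).

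**Figure D2:**
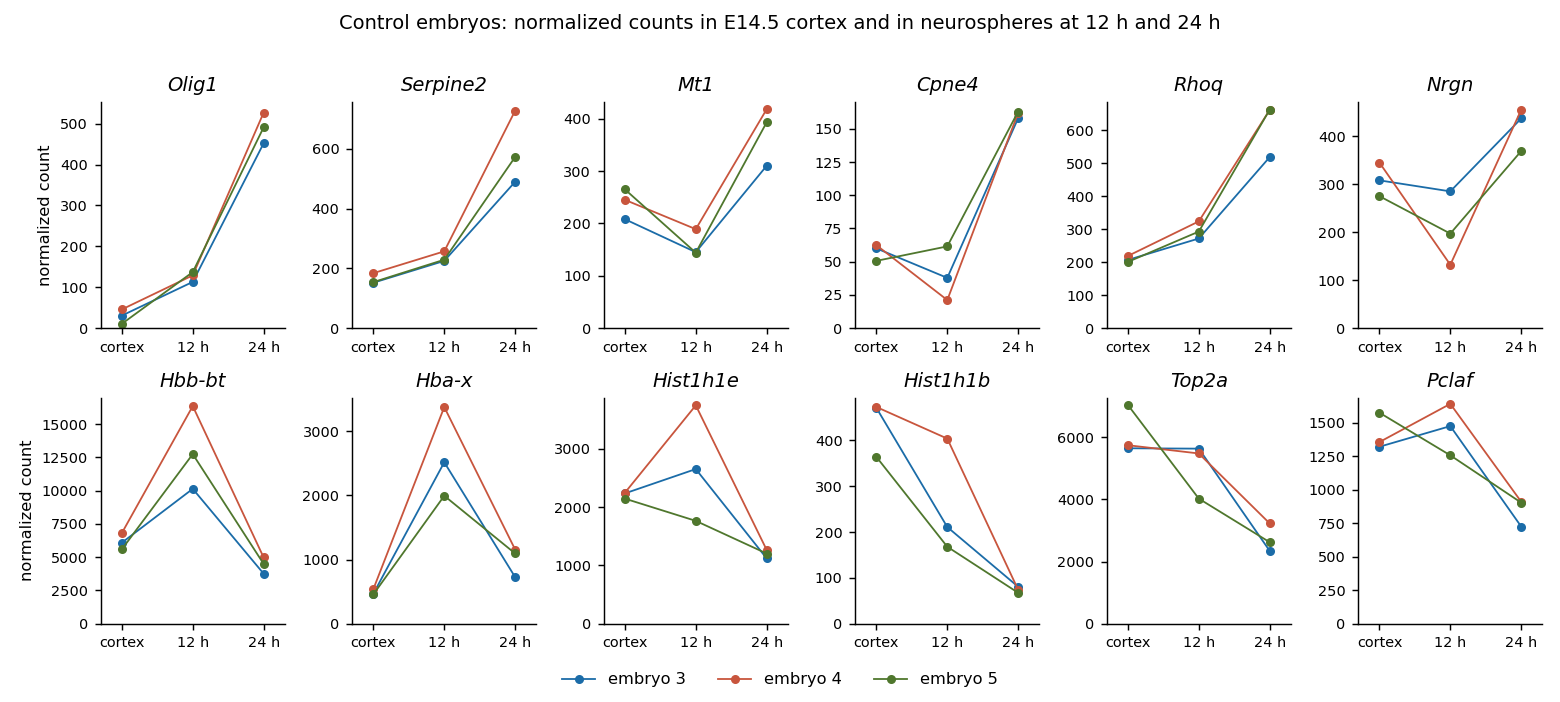
Normalized counts (y axes, from 0) of 12 called genes in the E14.5 cortex and in neurospheres at 12 h and 24 h (x axes), with a line for each control embryo. The upper row shows genes higher at 24 h, such as Olig1 at 452, 527 and 491 against 113, 129 and 137 at 12 h. The lower row shows genes lower at 24 h, and in it the globins Hbb-bt and Hba-x peak at 12 h.

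Metallothioneins are small cysteine-rich proteins that bind zinc and copper, and the neighbouring genes Mt1 and Mt2 usually respond together to metal and to glucocorticoid. Here Mt1 was at 145, 189 and 144 at 12 h and at 310, 418 and 393 at 24 h (2.34-fold, log2 difference 1.22 ± 0.20, adjusted p = 0.00568). Mt2 was at 99.1, 86.9 and 77.4 and then at 61.4, 65.7 and 75, with an estimate below 0 (log2 difference -0.37 ± 0.29, adjusted p = 0.811). The groups do not overlap for either gene, and they stand in opposite order. The difference between the genes was not tested. Their promoters are shown because Mt1 passed and its neighbour did not. The windows run from 250 bases before to 50 after the RefSeq start (GRCm38.p6, plus strand), at chr8:94178839-94179138 for Mt1 and chr8:94172368-94172667 for Mt2. Capitals mark the core of the metal response element, searched as TGCACNC or TGCGCNC on both strands, overlaps allowed:
Mt1: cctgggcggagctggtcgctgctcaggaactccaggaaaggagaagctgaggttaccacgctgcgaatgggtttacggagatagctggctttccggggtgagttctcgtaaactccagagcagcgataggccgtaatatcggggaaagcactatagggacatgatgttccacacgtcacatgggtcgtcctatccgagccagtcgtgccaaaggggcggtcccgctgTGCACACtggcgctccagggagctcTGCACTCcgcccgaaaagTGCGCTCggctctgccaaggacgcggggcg
Mt2: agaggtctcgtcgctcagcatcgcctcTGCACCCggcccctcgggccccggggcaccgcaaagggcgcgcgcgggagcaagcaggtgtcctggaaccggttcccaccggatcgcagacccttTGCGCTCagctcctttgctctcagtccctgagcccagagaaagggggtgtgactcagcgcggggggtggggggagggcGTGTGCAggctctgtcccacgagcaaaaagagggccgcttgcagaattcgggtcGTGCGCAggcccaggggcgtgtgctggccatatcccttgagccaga

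The Mt1 window holds 3 matches and the Mt2 window 4. At least 1 match is found in 25.7% of 32851 promoter windows of this length, 3 or more in 1.97% and 4 or more in 0.517%. The letters thus occur in both windows, while the 24 h to 12 h differences of the genes have opposite signs. Mt3, the form known from brain, was at 18.9, 15.3 and 25.1 and then at 25.9, 35.4 and 28.8, and Slc30a1, a zinc exporter, at 40.9, 84.5 and 59.2 and then at 75.1, 80.9 and 53.8. Neither passed (adjusted p = 0.828 and 0.912).

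Globin transcripts made up the largest group of genes that fell. Of the 10 erythroid genes tested, 6 were called lower and 0 higher (0.165% of all genes were called lower), and all 10 had an estimate below 0, with a median log2 difference of -1.23. Hbb-bt, an adult beta globin, was at 10135, 16352 and 12743 at 12 h and at 3759, 4980 and 4493 at 24 h (2.93-fold lower, log2 difference -1.55 ± 0.12, adjusted p = 2.8e-06). The embryonic beta globin Hbb-y was at 16605, 24711 and 16938 and then at 4936, 10679 and 8462 (2.5-fold lower, adjusted p = 9.84e-05). The embryonic alpha globin Hba-x fell from 2515, 3375 and 1993 to 726, 1156 and 1094 (2.64-fold, adjusted p = 0.000244). Embryonic and adult forms of both clusters were thus lower at 24 h, since Hba-a2 (2.14-fold), Hbb-bs (1.95-fold) and Hba-a1 (1.71-fold) passed as well. In bulk RNA, fewer cells of a type and less RNA in each cell cannot be told apart. Reads from the near-identical copies Hba-a1 and Hba-a2, and Hbb-bs and Hbb-bt, may be divided between them by the counting, so the single values of these 4 genes are less certain than their sum. Without each embryo in turn the number of erythroid genes called lower was 6, and with the Gm42418 share as a term beside the block it was 0, at a median of -1.08.

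The order across the 3 stages was the same in each embryo. The summed erythroid list was at 38297, 45421 and 41547 in the cortices of embryos 3, 4 and 5, at 106668, 153196 and 122720 at 12 h and at 45601, 74134 and 62727 at 24 h. Each 12 h culture exceeded its cortex, and each 24 h culture lay between the cortex and the 12 h culture. The list's median log2 difference between 12 h and cortex was 1.44.

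Liver transcripts followed another course. Embryo 3 had next to none at any stage, while embryos 4 and 5 carried them in the cortex and at 12 h and lost them by 24 h. The summed liver list, which contains the plasma proteins albumin, alpha-fetoprotein and apolipoproteins, was at 10.6, 967 and 1011 in the cortices, at 1.57, 1422 and 1032 at 12 h and at 6.83, 1.69 and 5 at 24 h. In the cultures of null embryos 1, 2 and 6 the sum was at 500, 204 and 936 at 12 h and at 115, 179 and 411 at 24 h. The near-complete loss thus rests on control embryos 4 and 5. In controls the genes of the liver list passed the filter on low values through the 12 h libraries alone, so no count or median of them is given. Alb, the albumin gene, had 1, 252 and 499 reads at 12 h and 0, 1 and 0 at 24 h, and in depth-scaled terms the pooled 12 h reads were 570 times those at 24 h (95% exact counting interval 102 to 2.25e+04). Hpx, the heme-binding plasma protein hemopexin, had 10, 107 and 121 reads at 12 h and 2, 0 and 0 at 24 h (90.2 times, interval 24.7 to 749). These intervals cover counting error only. Both are among the 22 genes counted as lower, but they reached a mean of 10 through the 12 h libraries alone, so their calls are no further support. Alb overlaps between the times through embryo 3, and Hpx did not pass with DESeq2 (adjusted p = 0.181). Apoe, a lipid carrier made by liver and by glia and named after its values were seen, was called lower too, at 182, 500 and 448 and then at 94.2, 177 and 253 (2.13-fold, adjusted p = 0.0277).

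**Figure D3:**
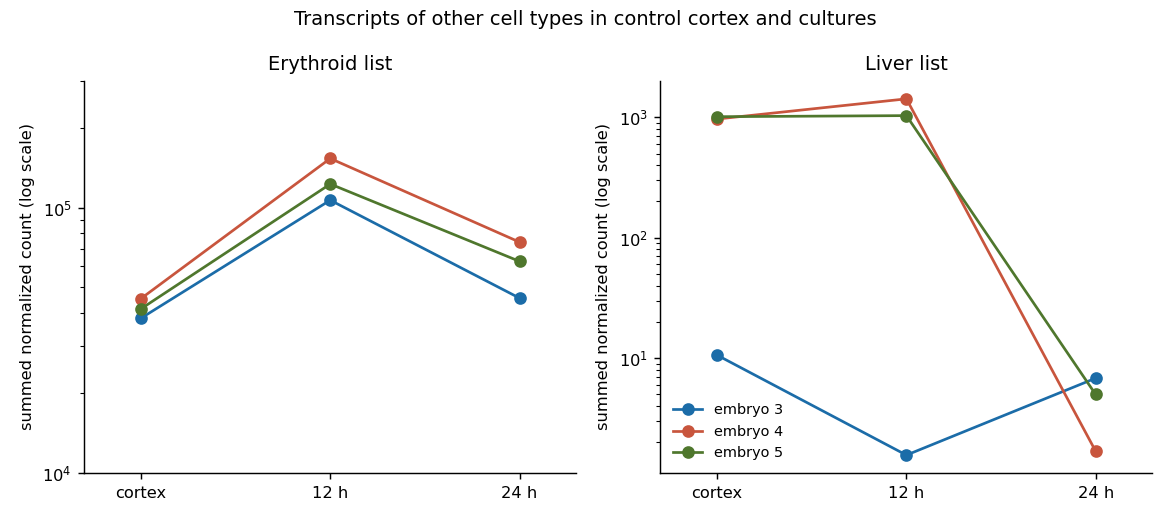
Summed normalized counts (y axes, log scale) of the erythroid list (left) and the liver list (right) in the cortex and in neurospheres at 12 h and 24 h, with a line for each control embryo. Erythroid sums peak at 12 h, between 106668 and 153196, and liver sums in embryos 4 and 5 drop from 1422 and 1032 at 12 h to 1.69 and 5 at 24 h.

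Microglial, endothelial and mesenchymal transcripts were low in the cultures at both times, and choroid plexus transcripts, mostly Ttr, stayed between 880 and 3817. Microglial genes summed to between 31.7 and 61.3 at 12 h and between 24.6 and 76.3 at 24 h, against 589 to 669 in the cortices, and 1 of 12 reached a mean of 10. Endothelial genes summed to between 44 and 84.5 at 12 h and between 50.5 and 94.4 at 24 h, against 1313 to 1576 in the cortices. Mesenchymal genes summed to between 135 and 176 and then between 158 and 194, against 1955 to 2661. Choroid plexus genes summed to 2054, 3817 and 1105 at 12 h and to 1678, 3632 and 880 at 24 h in embryos 3, 4 and 5, against 5180, 5435 and 3250 in the cortices. For these 4 lists the sums at 12 h and 24 h overlap, unlike the erythroid sums.

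Some genes of the cell cycle fell by 24 h. Top2a, the topoisomerase that untangles DNA in dividing cells, was at 5636, 5481 and 4027 at 12 h and at 2346, 3229 and 2624 at 24 h (1.84-fold lower, log2 difference -0.88 ± 0.14, adjusted p = 0.00518). It was the only call among the 20 tested genes of the G2 and mitosis list, of which 15 had estimates below 0 (median -0.26, against 0.02 for all genes tested). Kif11, a spindle motor, was at 368, 417 and 294 and then at 179, 248 and 203 (adjusted p = 0.181). Nusap1, a spindle-binding protein, was at 555, 642 and 623 and then at 425, 420 and 354 (adjusted p = 0.242). Both go the way of Top2a in every embryo with separate groups, without passing. Cdc20, the activator of the anaphase-promoting complex, stood on the other side, at 203, 228 and 223 and then at 285, 452 and 296 (log2 difference 0.63, adjusted p = 0.389). Mki67, the proliferation marker, was at 1848, 1809 and 1310 and then at 1102, 1311 and 1333 (log2 difference -0.39, adjusted p = 0.561), and its groups overlap because the 12 h value of embryo 5 is low.

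In the DNA replication list 0 of 22 tested genes passed in either direction, 8 had an unadjusted limma p below 0.05, all lower, and 19 had estimates below 0 (median -0.33; -0.47, -0.31 and -0.08 in embryos 3, 4 and 5). Over all 13294 genes tested, 1012 had an unadjusted limma p below 0.05, in either direction. Cdc45, a subunit of the replicative helicase, was at 48.8, 72.8 and 50.1 and then at 20.5, 23.6 and 22.5 (adjusted p = 0.385). Slbp, which binds the stem-loop of histone mRNAs, was at 159, 176 and 192 and then at 113, 85.9 and 140 (adjusted p = 0.519). Pclaf, a PCNA-associated factor of replication that belongs to no list here, did pass, at 1474, 1640 and 1256 and then at 725, 910 and 903 (1.72-fold lower, adjusted p = 0.0281). Linker histone genes passed as well. The libraries were primed with oligo(dT), and how fully this priming caught histone mRNAs that end in a stem-loop was not tested. Hist1h1e fell 2.17-fold, from 2651, 3743 and 1763 to 1120, 1266 and 1203 (adjusted p = 0.00297), and Hist1h1b 3.25-fold, from 211, 404 and 168 to 80.6, 74.1 and 67.5 (adjusted p = 0.00418). The Hist1h1b transcript was lower at each step, with 471, 473 and 364 in the cortices. With the Gm42418 share as a term beside the block the estimates of Hist1h1e (0.74) and Hist1h1b (0.50) took the opposite sign, without passing. Neither changed sign over all 12 neurosphere libraries with share and block, or with the share and no block. Cdca2, a chromosome-bound phosphatase subunit named after its values were seen, was at 318, 372 and 279 and then at 169, 115 and 160 (2.19-fold lower, adjusted p = 0.0341).

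Genes of the G1 phase gave 0 calls among 11 tested (median -0.08), with 2 called higher without embryo 3 (184 of 13232 over all genes). Ccnd1, the cyclin that growth factors induce, was at 1049, 1004 and 1100 at 12 h and at 1613, 1641 and 1670 at 24 h, with separate groups, and it narrowly missed the threshold in controls (log2 difference 0.64 ± 0.14, adjusted p = 0.0578). Ccnd2 was at 19778, 20393 and 14945 and then at 13250, 17357 and 16414 (adjusted p = 0.742). Cdkn1a, the p53-induced inhibitor of cyclin-dependent kinases, was at 950, 798 and 695 and then at 1050, 1348 and 920 (log2 difference 0.43, adjusted p = 0.511).

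The promoters of Top2a and Pclaf are shown for the letters that mark many cell cycle promoters, the CCAAT box (CCAAT) and the cell cycle gene homology region (TTTGAA). They are from RefSeq (GRCm38.p6), with Top2a at chr11:99024140-99024439 on the minus strand and Pclaf at chr9:65890073-65890372 on the plus strand. Capitals mark matches to either on both strands, overlaps allowed:
Top2a: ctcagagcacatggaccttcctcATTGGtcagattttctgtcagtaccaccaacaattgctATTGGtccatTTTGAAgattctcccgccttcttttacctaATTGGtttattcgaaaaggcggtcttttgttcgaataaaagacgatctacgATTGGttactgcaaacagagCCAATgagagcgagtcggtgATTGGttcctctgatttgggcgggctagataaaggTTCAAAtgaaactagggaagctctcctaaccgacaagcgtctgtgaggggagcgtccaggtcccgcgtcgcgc
Pclaf: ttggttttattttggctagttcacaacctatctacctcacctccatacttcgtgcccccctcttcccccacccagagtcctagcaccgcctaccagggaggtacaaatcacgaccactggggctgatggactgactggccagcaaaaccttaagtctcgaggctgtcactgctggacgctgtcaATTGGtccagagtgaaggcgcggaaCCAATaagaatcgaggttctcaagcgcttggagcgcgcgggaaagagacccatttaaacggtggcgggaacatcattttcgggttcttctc

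Top2a holds 6 CCAAT matches and 2 TTTGAA matches. Pclaf holds 2 and 0. A CCAAT match is found in 37.4% of all windows, a TTTGAA match in 17.9% and both in 6.95%. Of the 20 tested genes of the G2 and mitosis list 17 had a window, 15 of them with CCAAT, 12 with TTTGAA and 12 with both. A list gene was counted if any of its windows matched, while the percentages are of single windows, so the units differ. Top2a, with both, and Pclaf, with CCAAT alone, were each lower at 24 h.

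Lists that define the cells of the cortex gave no call outside the glial list. Of 18 radial glial genes 0 were called (median 0.08), with 3 called higher without embryo 3 (184 of 13232 over all genes). Sox2, a factor of neural stem cells, was at 2190, 2220 and 1849 and then at 1685, 2085 and 1847 (adjusted p = 0.835), and Nes, an intermediate filament of progenitors, at 898, 1005 and 788 and then at 987, 1085 and 1059 (adjusted p = 0.759). Both markers of the labelled cell type, cortical neural progenitors, were counted in every library. Tnc, a matrix glycoprotein of radial glia, was at 123, 129 and 79 and then at 178, 224 and 183 (log2 difference 0.84, adjusted p = 0.26), and Pax6, a factor of cortical radial glia, at 252, 157 and 251 and then at 184, 106 and 186 (log2 difference -0.48, adjusted p = 0.633). Of 11 intermediate progenitor genes 0 were called (median -0.04), with 1 in each direction without embryo 3. Over all 13232 genes tested in that fit, 184 were called higher and 82 lower. Neurog2, the proneural factor of cortical progenitors, was at 203, 256 and 239 and then at 138, 142 and 130 (log2 difference -0.76 ± 0.21, adjusted p = 0.269). Eomes, which marks intermediate progenitors, was at 779, 847 and 631 and then at 508, 677 and 691 (adjusted p = 0.744). Dmrta2, a cortical patterning factor named after its values were seen, was called lower, at 733, 744 and 1030 and then at 445, 448 and 525 (1.75-fold, adjusted p = 0.0322).

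The neuron and synapse lists gave 0 calls, although Nrgn, which is in neither, rose. In the neuron list 17 of 20 estimates were above 0 (median 0.14; 0.22, 0.19 and -0.05 in embryos 3, 4 and 5, and 0.01 in nulls), and in the synapse list 15 of 20 (median 0.21), where 6 had an unadjusted limma p below 0.05 and 3 were called higher without embryo 3. Across all genes tested 52.7% of estimates were above 0, and 1012 of 13294 had an unadjusted limma p below 0.05 in either direction. Without embryo 3, 184 of all 13232 genes tested were called higher. Cacna2d1, a calcium channel subunit, was at 967, 865 and 812 and then at 1264, 1175 and 1089 (log2 difference 0.42, adjusted p = 0.465). Tubb3, the neuronal tubulin, was at 5954, 5878 and 8111 and then at 6054, 5473 and 7510 (adjusted p = 0.935). Genes of ventral telencephalon and its interneurons leaned the other way, with 11 of 11 estimates below 0 (median -0.42), 6 at an unadjusted limma p below 0.05, all lower, and 0 called. Dlx1, a homeobox factor of interneuron precursors, was at 882, 848 and 1007 and then at 657, 645 and 740 (log2 difference -0.42, adjusted p = 0.5). Sst, which mature interneurons express, was among the genes that rose, while the precursor factor Dlx1 had an estimate below 0 that did not pass.

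**Figure D4:**
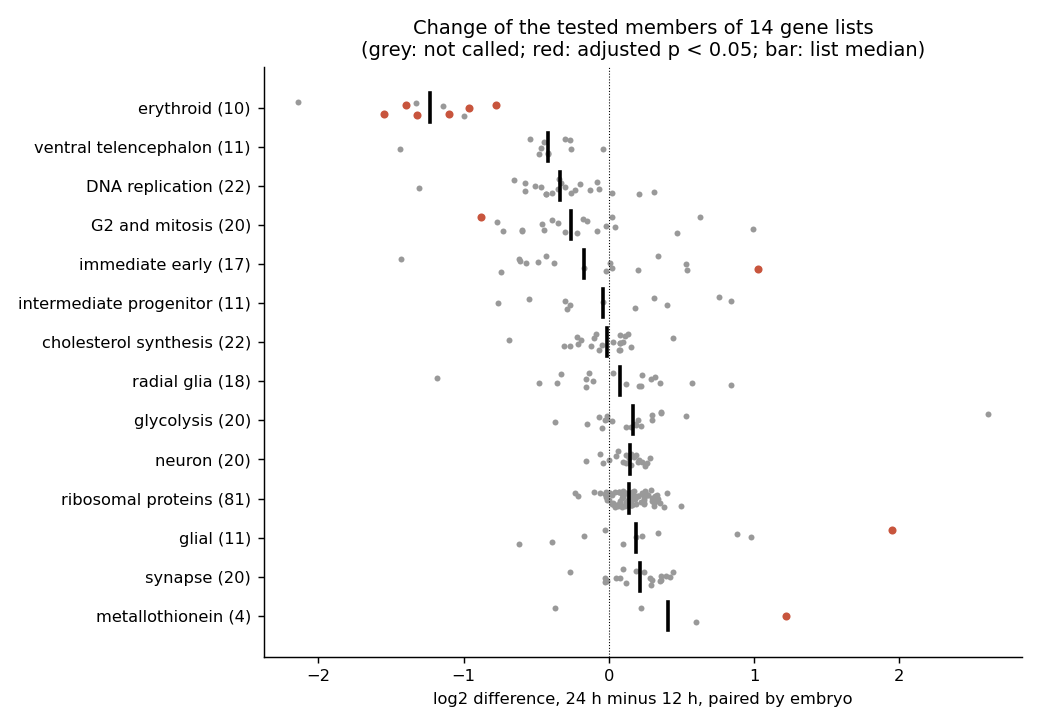
Log2 difference between 24 h and 12 h (x axis) of the tested members of 14 gene lists (y axis, number tested in parentheses), with a point for each gene, red where the adjusted p is below 0.05, and a black bar at each list's median. The erythroid median lies at -1.23 with 6 red points, and the other medians lie between -0.42 and 0.41.

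Response genes of dissociation and culture were for the most part unresolved. Of 17 immediate early genes 1 was called, Ier3, an early gene induced by growth factors and stress, at 156, 148 and 131 and then at 273, 318 and 300 (2.04-fold higher, adjusted p = 0.0346). Egr1, an early transcription factor of growth factor signalling, was at 1353, 1474 and 1127 and then at 879, 891 and 786 (log2 difference -0.62 ± 0.14, adjusted p = 0.0978). Fos was at 138, 98.6 and 111 and then at 113, 140 and 100 (adjusted p = 0.992). All 3 genes had lower counts in every cortex, where Egr1 was at 21.2, 29.8 and 28.8, Fos at 3.53, 6.53 and 1.74 and Ier3 at 32.9, 37 and 43.6. The immediate early list had a median log2 difference of 1.83 between 12 h and cortex and of -0.17 between 24 h and 12 h. Likewise the cholesterol synthesis list had medians of 1.46 and -0.01, the FGF and EGF response list 0.91 and 0.14, and the p53 target list 0.89 and -0.04. The 12 h libraries enter both medians of a list with opposite sign, so error at 12 h moves them apart. The contrast between them was not tested. Insig1, a sterol-controlled regulator of cholesterol synthesis, was at 650, 985 and 474 and then at 457, 452 and 348 (log2 difference -0.69, adjusted p = 0.188).

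Lists of growth and energy genes gave 0 calls over the 3 embryos. Without embryo 3, 10 of 81 ribosomal protein, 2 of 21 glycolysis and 2 of 74 respiratory chain genes were called higher. In that fit 184 of all 13232 genes tested were called higher. In the ribosomal protein list 72 of 81 estimates were above 0 (median 0.14), 14 with an unadjusted limma p below 0.05, all higher. Over all genes tested 1012 of 13294 had such a p, in either direction. Rps12 was at 6086, 5237 and 8463 and then at 9412, 8576 and 9456 (log2 difference 0.50, adjusted p = 0.208), which was the smallest p of that list. The glycolysis list had a median of 0.16 over 20 genes and the respiratory chain list of 0.08 over 74. In the list of the unfolded protein response 0 of 14 passed (median 0.04), in the heat shock list 0 of 11 (median 0.06) and in the integrated stress response list 0 of 17 (median -0.07). Ddit3, a transcription factor of the stress response, was at 768, 796 and 337 and then at 373, 526 and 293 (log2 difference -0.61, adjusted p = 0.321). Gas1, a co-receptor for hedgehog ligands, was at 1040, 1153 and 628 and then at 475, 534 and 553 (log2 difference -0.81, adjusted p = 0.0978).

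Of the genes that were lower at 24 h, Gm26917, Gm42418 and Rn7sk are annotated as non-coding. Gm26917, next to Gm42418 on chromosome 17, was at 6432, 6973 and 4540 and then at 2172, 3507 and 2640 (2.16-fold lower, adjusted p = 0.00108). Outside the naming rule, Gm42418, AA474408, Rn7sk, Lars2, Tmem245 and Tmprss11a were also called lower, between 1.78- and 3.8-fold. Rn7sk, the 7SK small nuclear RNA, which has no poly(A) tail, was at most at 29.4 in a cortex and at 2500, 2541 and 1461 at 12 h. For Gm42418, AA474408, Lars2 and Tmem245 the 12 h and 24 h libraries overlap, although the order within each embryo is the same.

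The null cultures give a set of libraries that shares no sample with the controls. All 37 genes called in controls had the same sign in the nulls, though the share of equal signs over all genes tested was not taken. Sizes were not always alike. The log2 difference of Sst was 0.79 in controls and 0.08 ± 0.17 in nulls, and that of Rgs7bp 1.05 and 0.15 ± 0.19. For Pdzrn4 the values were 0.95 and 0.96 ± 0.20. There 28 of 13374 tested genes passed (0.209%), and 15 genes were called in both, which is 15 of 37 control calls and 15 of 28 null calls. Among these are Olig1, Serpine2, Mt1, Rhoq and Pdzrn4, which were higher, and Hbb-bt, Hbb-y, Hbb-bs, Hist1h1e, Hist1h1b, Top2a, Gm26917 and Lars2, which were lower. Mmp3 is also counted in the 15, although in controls it passed the filter through the 24 h libraries alone. In null embryos 1, 2 and 6 Olig1 was at 105, 113 and 100 at 12 h and at 585, 490 and 590 at 24 h (log2 difference 2.37 ± 0.20, adjusted p = 3.63e-08). Hbb-bt was at 7216, 11100 and 12511 and then at 3975, 4354 and 6075 (log2 difference -1.08 ± 0.10, adjusted p = 2.24e-07). The Gm42418 share in these cultures was 18.9, 25.6 and 32.7% at 12 h and 23, 20.5 and 20.8% at 24 h, so it went up in embryo 1 and down in embryos 2 and 6.

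Some list members missed the threshold in controls and passed in nulls. The log2 difference of Olig2 was 0.88 in controls and 1.39 ± 0.16 in nulls (adjusted p = 1.53e-05), and that of Tnc was 0.84 and 1.42 ± 0.28 (adjusted p = 0.0129). Ccnd1 had 0.64 in controls and 0.76 ± 0.14 in nulls (adjusted p = 0.00516), and Cdkn1a 0.43 and 0.65 ± 0.13 (adjusted p = 0.0283). Bcan, a brain proteoglycan, had 0.73 in controls (adjusted p = 0.276) and 2.01 ± 0.32 in nulls (adjusted p = 0.00107). For each of these the difference between genotypes did not pass in limma, as given next. The replication list, with a median of -0.33 in controls, had a median of 0.04 in nulls, while the G2 and mitosis list had -0.26 and -0.31 and the ventral list -0.42 and -0.36. Whether the hours in culture acted differently in the genotypes was tested as an interaction over the 12 neurosphere libraries, and 0 of 13359 genes passed in limma (smallest adjusted p = 1; 468 at an unadjusted p below 0.05). Of the 37 control calls 19 had an unadjusted limma interaction p below 0.05. They were picked on the control differences, which also enter the interaction. With edgeR 2 genes passed the interaction, the liver genes Alb and Serpina1e. In limma 5 passed without control embryo 3 and 1 without control embryo 5.

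**Figure D5:**
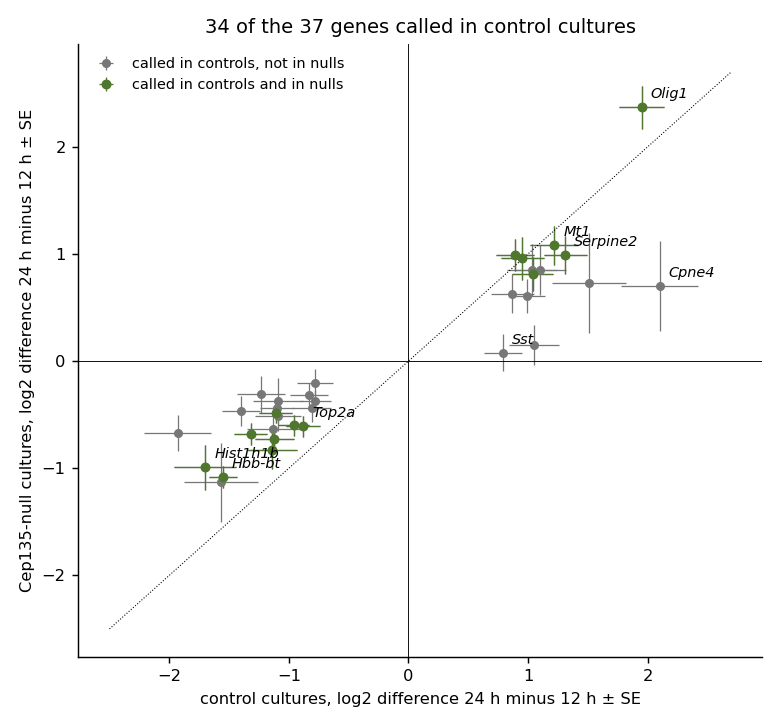
Log2 difference between 24 h and 12 h in control (x axis) and Cep135-null cultures (y axis), each with its SE, for the 34 of 37 called control genes within 3 log2 units; Mmp3, Hpx and Alb lie beyond. All points have the same sign on both axes, green points were called in both genotypes, and the dotted line marks equal change.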

How the data were processed

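The authors prepared 3′ mRNA libraries (QuantSeq, FWD) from total RNA, trimmed adapters and poly(A), aligned reads to GRCm38 with TopHat 2.0.10 (Bowtie 1.0.0, SAMtools 0.1.19), allowing 3 mismatches and 20 multiple hits, and counted them by strand with HTSeq 0.6.1 against GENCODE vM20. They deposited 1 table of normalized counts (a depth-scaled signal, not raw counts), with 1 column per sample and no pooled replicates. All 114788 values above 0 in the 6 control culture columns were whole multiples of that library's value of 1 read (100%, tolerance 0.001), and reads were recovered from them for count tests: edgeR called 11 genes higher and 36 lower, and DESeq2 18 and 22.

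Values were tested as log2(normalized count + 1) with limma 3.58.1 (R 4.3.3; intensity trend, two-sided, embryo as block) over genes with a mean of at least 10, with Benjamini-Hochberg adjustment at 0.05; fold changes are on that scale and understate low genes. edgeR 4.0.16 and DESeq2 1.42.0 were alternatives. The pairing comes from the labels, since cultures with the same number are from the same embryo. Deviations from the group means correlated at -0.0435, 0.179 and 0.163 within embryos 3, 4 and 5, and between -0.307 and 0.229 across embryos. Libraries held 5248040, 8631534 and 9635546 reads on genes at 12 h and 5271654, 4732781 and 5709443 at 24 h (embryos 3, 4 and 5); thinning to equal depth was an alternative. The sources used here do not say whether the cultures of an embryo were plated separately. With embryo as a block, limma sets the 24 h to 12 h difference against its spread between these embryos, shrunk toward a trend over all genes. SEs and p-values thus do not measure the spread of a gene's own 3 differences alone. AA474408, with log2 differences of -2.53, -2.48 and -0.76 in embryos 3, 4 and 5, has an SE of 0.28. Olig1, with 1.99, 2.02 and 1.83, has an SE of 0.19. Intervals at 95% and floors of 3 reads cover counting error only. Scripts were tested on simulated data.

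Genes named were the up to 12 higher and 12 lower with the smallest p that passed, moved alike in 3 embryos and did not overlap between times; members of gene lists were named besides, up to 5 with values per list. The comparison, the lists and the named members were chosen with earlier results of these data known. Lists are described by counts and medians, with no test of a list. Gene positions are from GENCODE vM21, and promoter windows from RefSeq. Some genes that the rule or the lists would name are not reported here.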

Additional observations from a re-analysis of the deposited data

How the results depend on the processing

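The number of genes that passed in control cultures, 15 higher and 22 lower at 24 h, depended on the embryo block. Without the replicate block 1 passed in each direction. With the Gm42418 share as a term, 4 were higher and 3 lower without the block; with the block, a fit chosen after seeing the data, 0 and 1; and over all 12 neurosphere libraries with share and block, also chosen after seeing the data, 0 and 0. In the fit with share and block on 6 libraries, Cpne4 (-0.70), Nrgn (-0.70), Rgs7bp (-1.27), Hist1h1e (0.74) and Hist1h1b (0.50) took the opposite sign on the log2 scale, without passing. With the share and no block, and with share and block over all 12 libraries, 0 named genes did. A pseudocount of 0.1 left 8 higher genes, recomputed median-of-ratios factors left 9, no filter on low values gave 38 higher and 58 lower, and edgeR gave 36 lower. The cause of these shifts was not tested. Leaving out 1 embryo gave between 5 and 184 higher and between 14 and 82 lower genes. Counts stayed within 1.5 times under a pseudocount of 5, a minimum mean of 50, quantile and TMM scaling, DESeq2, all 12 libraries with the block, and an adjusted p below 0.1. With reads thinned to equal depth 16 were higher and 23 lower, and 36 of the 37 calls were kept. With recomputed median-of-ratios factors, quantile or TMM scaling, edgeR, DESeq2 or thinned reads, the median log2 difference of all genes lay between 0.000955 and 0.0166. The interaction with genotype gave 0 calls in limma, 2 in edgeR and between 0 and 5 when 1 embryo was left out, with 5 without control embryo 3 and 1 without control embryo 5. Genes with few reads, such as Mmp3 and Hpx, are limited by depth.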
